A study of Mus musculus with 3 samples.

Results

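The Hox genes of the 4 clusters were described on 3 Agilent 2-colour arrays of primary fibroblasts of mouse embryos, cells of connective tissue kept in culture. The genes were taken by symbol: every probe whose RefSeq transcript belongs to a gene named Hoxa, Hoxb, Hoxc or Hoxd with a number. That rule gave 39 genes, of which 37 had a probe, 46 of the 41174 probes on the array. Hoxc6 and Hoxc11 had no probe matched. The Hoxa cluster on chromosome 6 held 11 genes and 14 probes, the Hoxb cluster on chromosome 11 held 10 genes and 13 probes, the Hoxc cluster on chromosome 15 held 9 genes and 8 probes, and the Hoxd cluster on chromosome 2 held 9 genes and 11 probes.

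Each array held 1 sample labelled SA1-null in the dye Cy3 and 1 sample labelled WT in the dye Cy5, both from embryos of stage E12.5, untreated and grown with 10% serum. SA1 belongs to cohesin, the ring complex that embraces sister chromatids and forms chromatin loops, and the series asks what it does in gene regulation and development. Every array had the same dye orientation, and an effect of dye cannot be told apart from one of genotype. In the labels the arrays are biological replicates 1 to 3, without saying which embryos or cultures were pooled or shared, so the spread between arrays may be partly technical. Neither the SA1 allele, the strain, the sex, nor the part of the embryo that gave the fibroblasts is stated in the labels.

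Hox genes encode homeodomain transcription factors that give cells their position along the head to tail axis and, in the limb, from shoulder to digits. In each cluster the genes stand in the order of their paralogue numbers, and genes of low number are switched on earlier and further towards the head than genes of high number. Fibroblasts keep the Hox pattern of the place they came from when they are grown in culture. For the description below, paralogue numbers 1 to 3 are called anterior, 4 to 8 central and 9 to 13 posterior.

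The promoters of 4 Hox genes named below are shown. Hoxd4 and Hoxa5 are central genes that were lower on replicate 1 in the channel labelled SA1-null. Hoxa11 is a posterior gene that was higher there. Hoxd8 had the smallest p of the Hox genes and did not pass the test. The sequences are from RefSeq on build GRCm38.p6, run 5′ to 3′ on the gene's strand, and hold 250 bases before and 50 bases after the annotated start. Capitals mark AGGTCA, the repeat unit of retinoic acid response elements, and TATAAA, the TATA box core, on either strand. The windows are chr2:74721728-74722027 on the plus strand for Hoxd4, chr6:52204538-52204837 on the minus strand for Hoxa5, chr6:52245761-52246060 on the minus strand for Hoxa11 and chr2:74704365-74704664 on the plus strand for Hoxd8.
Hoxd4: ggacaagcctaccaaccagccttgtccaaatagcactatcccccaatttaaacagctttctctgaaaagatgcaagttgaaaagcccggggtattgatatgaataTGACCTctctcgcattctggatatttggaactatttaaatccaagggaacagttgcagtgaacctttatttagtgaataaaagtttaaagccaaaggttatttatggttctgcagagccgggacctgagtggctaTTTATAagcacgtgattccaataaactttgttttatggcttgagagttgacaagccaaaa
Hoxa5: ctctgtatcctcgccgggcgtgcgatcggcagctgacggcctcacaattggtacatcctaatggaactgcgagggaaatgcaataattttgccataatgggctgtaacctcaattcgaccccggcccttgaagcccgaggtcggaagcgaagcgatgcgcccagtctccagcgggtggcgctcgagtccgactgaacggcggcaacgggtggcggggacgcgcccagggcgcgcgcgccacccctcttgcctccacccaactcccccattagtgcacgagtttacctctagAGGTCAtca
Hoxa11: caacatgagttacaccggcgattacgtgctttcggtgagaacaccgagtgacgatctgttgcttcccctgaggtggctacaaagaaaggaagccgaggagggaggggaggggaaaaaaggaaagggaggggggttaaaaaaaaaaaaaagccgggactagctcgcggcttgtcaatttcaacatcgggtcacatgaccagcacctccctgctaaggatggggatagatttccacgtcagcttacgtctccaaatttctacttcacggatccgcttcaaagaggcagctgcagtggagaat
Hoxd8: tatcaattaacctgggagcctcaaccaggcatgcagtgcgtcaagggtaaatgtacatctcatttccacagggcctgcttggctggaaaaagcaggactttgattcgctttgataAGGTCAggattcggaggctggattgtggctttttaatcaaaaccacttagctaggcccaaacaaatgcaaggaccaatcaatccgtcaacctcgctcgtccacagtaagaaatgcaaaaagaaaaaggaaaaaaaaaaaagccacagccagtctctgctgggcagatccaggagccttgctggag

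AGGTCA was found at base 106 of the Hoxd4 window, base 292 of the Hoxa5 window and base 116 of the Hoxd8 window, and TATAAA at base 241 of the Hoxd4 window. Of the letters searched, the Hoxa11 window held none. The GC content of these windows was 39.7% for Hoxd4, 61.7% for Hoxa5, 51.0% for Hoxa11 and 46.7% for Hoxd8. Across the 24 promoters listed for 22 Hox genes, the median GC content was 57.7%, against 52.7% for all 32851 promoters in the table, and the median number of CpG dinucleotides was 14.5, against 7. AGGTCA stood in 7 of 24 Hox promoters (29.2%), against 16.3% of all promoters, and TATAAA in 4 of 24 (16.7%), against 13.6%. Of the genes with AGGTCA, Hoxa5, Hoxb4, Hoxc4 and Hoxd4 had a ratio below 0 on replicate 1. Hoxd8 and Hoxd10 were above 0 there, and Hoxd3 was not tested. Windows without AGGTCA belonged to genes on both sides of 0, such as Hoxa2 (log2 ratio -1.74) and Hoxa11 (2.59). A link between this motif and the ratios was not tested. The Pbx-Hox composite motif TGATNNAT stood in the promoters of Hoxa2, Hoxb1, Hoxb8 and Hoxd11, which is 4 of 24 (16.7%), against 8.85% of all. The core motif of CTCF, the protein at which cohesin loops end, was spelled with 12 letters, 4 of them free, and searched on both strands like the others. It was in 0 of 24 Hox promoter windows and in 2.43% of all.

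Stag1, the gene that encodes SA1, checks the labels. Its log2 ratio, channel labelled SA1-null over channel labelled WT, was 3.34, 3.74 and 3.47 on the 3 arrays, so it was higher in the channel labelled SA1-null (3.52 ± 0.21, SD, n = 3, adjusted p = 0.0273 in limma). The log2 ratio stayed above 0 under every alternative that gave a value, and the limma adjusted p missed the threshold with scale normalization (0.0647), without the filter on dim probes (0.0994), with unblocked separate channels (0.0742), without replicate 2 (0.214) and without replicate 3 (0.49). This goes against the labels, and every direction below is that of the channel labels and would turn over if they were exchanged. Replicate 1 was on 1 slide and replicates 2 and 3 shared another. Ratios were widest on replicate 1, where the SD over all genes was 0.84, against 0.34 on replicate 2 and 0.54 on replicate 3. Ddx3y, a Y-linked gene, was well above background in both channels on replicate 1 and in neither on replicates 2 and 3, with readings of 1633, 32 and 29 in the samples labelled SA1-null and 6320, 57 and 52.5 in those labelled WT. Replicate 1 thus stood apart in both samples, and each Hox result is given per array. Between 60.6% and 65.9% of probes were well above background in the channel labelled SA1-null and between 61.9% and 67.0% in the channel labelled WT.

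Of the 37 Hox genes with a probe, 30 passed the filter on dim probes, which asked that a probe be well above background in at least 1 channel on all 3 arrays. These were all 11 Hoxa genes, 8 Hoxb genes, 5 Hoxc genes and 6 Hoxd genes, and 28 of them were well above background in both channels on every array. Hoxa6, a gene of trunk identity, and Hoxa13, which patterns the digits and the hindgut, were well above background in the channel labelled SA1-null on 2 of 3 arrays. Hoxb1, known from the hindbrain, Hoxc12 and Hoxd1 were not well above background in either channel on any array. Hoxb13, a gene of the tail end of the axis, Hoxc13, known from hair and nails, Hoxd3, which shapes the first neck vertebrae, and Hoxd12, a gene of the distal limb, were above background on some arrays and were not tested.

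The comparison over the 3 arrays asked whether Hox genes differed between the channels. Of the Hox genes, 0 of the 30 Hox genes tested passed the threshold of 0.05 on the adjusted p, against 0.314% of all 18485 genes tested with limma. At an unadjusted p under 0.05 there were 2, Hoxd8 and Hoxb9, against 7.49% of all genes. Adjusted p-values of the 30 genes lay between 0.452 and 0.990 in limma. With 3 arrays the smallest two-sided p of an exact sign permutation is 0.25, and calls at these sizes need limma's pooling of the spread over genes. In simulated ratios with the real spread, with 18485 genes, changes of 2-fold were recovered in 0% of cases, of 4-fold in 56.1% and of 8-fold in 72.7%. Differences of the smallest size were thus not detectable with 3 arrays. The changed genes were drawn from all genes, whose median SD over the arrays was 0.32, against 0.85 for the Hox genes. These rates are therefore not rates for the Hox genes, whose spread was larger.

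Means over the arrays hid opposite behaviour of single arrays. The median of the 30 mean log2 ratios was -0.07, close to the -0.02 of all genes. By cluster it was -0.06 for Hoxa, -0.28 for Hoxb, 0.38 for Hoxc and 0.03 for Hoxd. Without replicate 1 the Hoxb median was 0.32, and over the replicates left out in turn the Hoxd median lay between -0.16 and 0.25. The lowest mean belonged to Hoxd4, a gene of neck identity (-1.33 ± 1.80, SD, n = 3), and the highest to Hoxc10, a gene of the lumbar region and hindlimb (1.13 ± 1.19). Both SDs were larger than the means. With the mean over the probes of a gene, Hoxc10 was at 0.77 and Hoxc9 at 0.91.

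**Figure D1:**
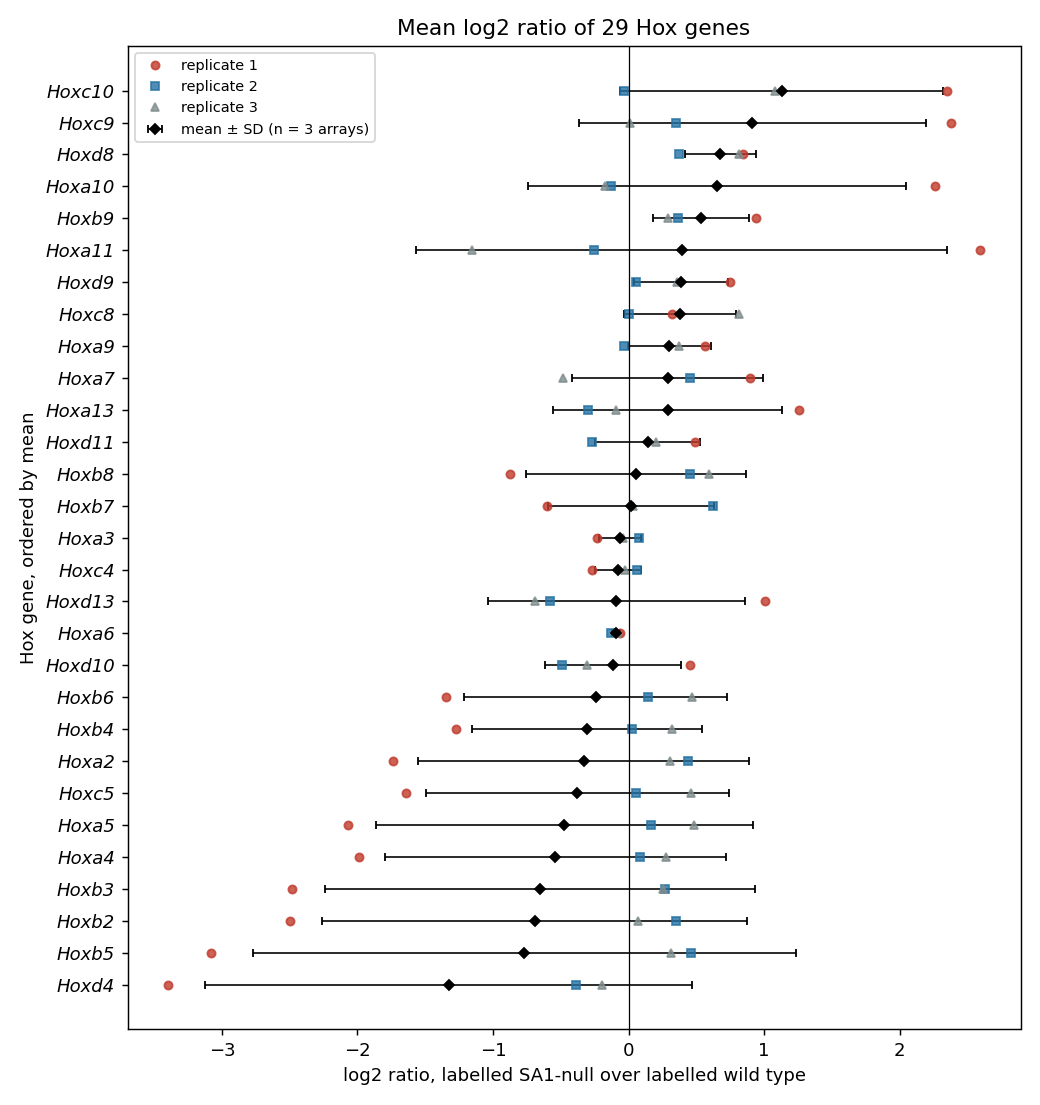
Mean log2 ratio (channel labelled SA1-null over channel labelled WT) of 29 of the 30 Hox genes tested, ordered by mean. Black diamonds with bars are the mean ± SD of 3 arrays, circles replicate 1, squares replicate 2 and triangles replicate 3; from Hoxd4 at -1.33 to Hoxc10 at 1.13, most bars cross 0 and the circles of replicate 1 lie farthest out.

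On replicate 1 the log2 ratios of the Hox genes ran with paralogue number over the 4 clusters. All 11 posterior genes had a ratio above 0 on replicate 1, higher in the sample labelled SA1-null (46.4% of all genes were above 0 there), with a median log2 ratio of 1.01. All 5 anterior genes were lower, with a median of -1.74, and so were 11 of 14 central genes, with a median of -1.07 (53.6% of all genes were below 0). Past a log2 ratio of 1 in either direction stood 16 of 30 Hox genes on replicate 1, against 14.0% of all genes. These were 6 above 1, all posterior, against 4.43% of all genes, and 10 below -1, 3 anterior and 7 central, against 9.61%.

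On replicate 2 no Hox gene was past 1 in either direction (0 of 30, against 1.97% of all genes). Replicate 3 had 1 above, Hoxc10 (2.36% of all genes), and 1 below, Hoxa11 (3.46%), which is 2 of 30, against 5.83% of all genes. Class medians on replicate 2 were 0.27 for anterior, 0.12 for central and -0.13 for posterior genes, and on replicate 3 they were 0.07, 0.31 and 0.01. The order of these medians on replicate 2 was opposite to that on replicate 1. Since replicates 2 and 3 make up slide 2, these are also the values within that slide, and slide 1 held 1 array.

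As a description across the 30 genes, which share arrays, samples and clusters and are not independent, the paralogue number and the log2 ratio had a Spearman rho of 0.80 (Pearson r 0.75) on replicate 1, -0.37 on replicate 2 and -0.15 on replicate 3. Within clusters on replicate 1, rho was 0.81 over the 11 Hoxa genes, 0.79 over the 8 Hoxb genes, 0.80 over the 5 Hoxc genes and 0.49 over the 6 Hoxd genes. On replicates 2 and 3 the clusters went both ways, with rho of -0.31 and -0.55 for Hoxa, 0.45 and 0.31 for Hoxb, -0.40 and 0.70 for Hoxc, and -0.54 on both arrays for Hoxd. Within the Hoxd cluster the order rested on Hoxd4 alone, since Hoxd8 to Hoxd13 lay between 0.46 and 1.01 with no order by number. Across the 30 genes, the ratios of replicate 1 correlated with those of replicate 2 at r -0.26 and with those of replicate 3 at -0.23, while replicates 2 and 3 correlated at 0.41. Across all 18485 genes the same pairs of arrays gave r of 0.37, 0.27 and 0.47. By Spearman rho these pairs gave 0.23, 0.16 and 0.15 over all genes, and -0.31, -0.26 and 0.38 over the Hox genes. Over all genes, replicates 2 and 3 were thus the pair with the highest r and the lowest rho.

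**Figure D2:**
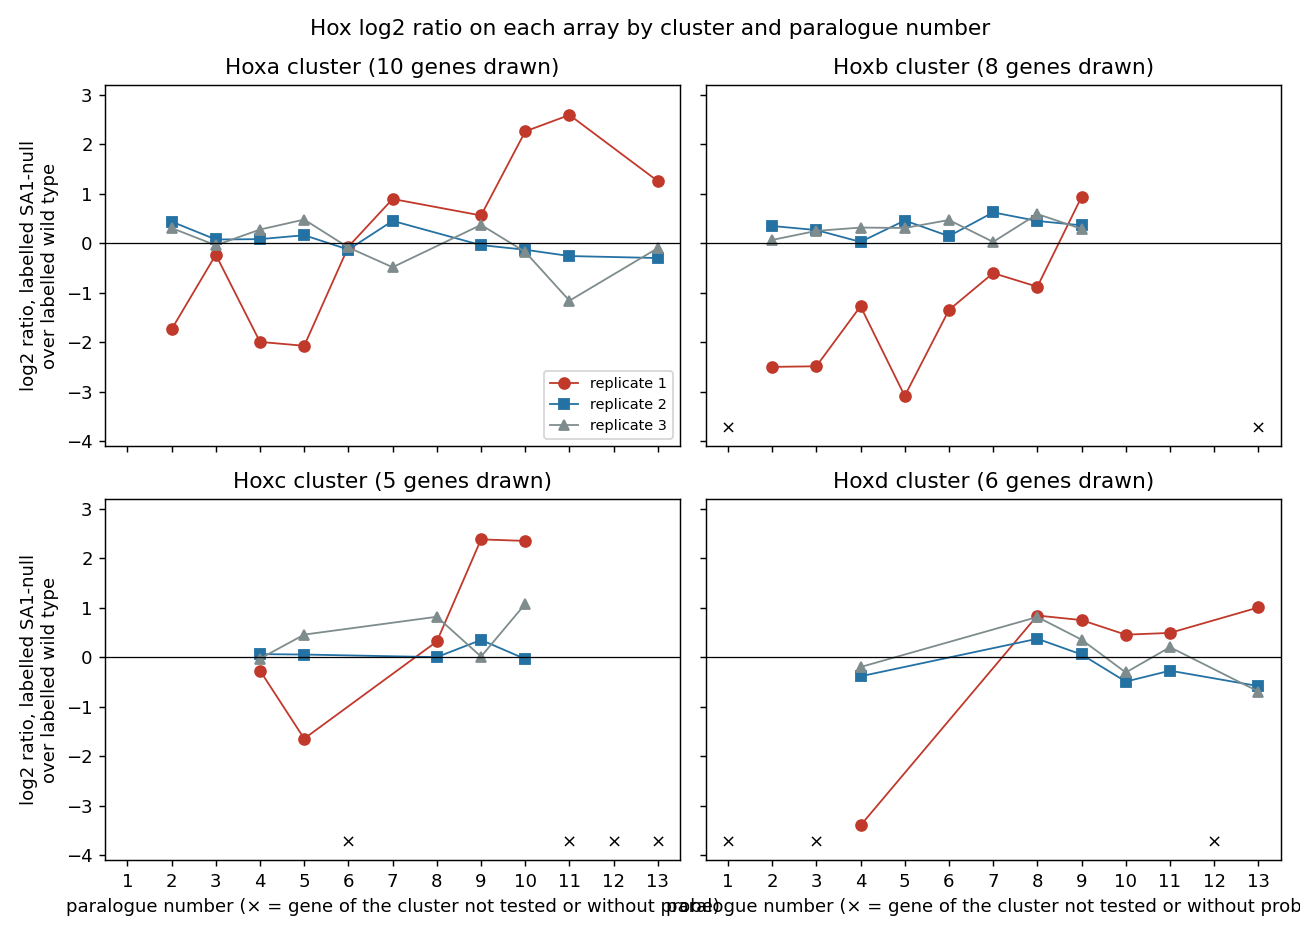
Log2 ratio (channel labelled SA1-null over channel labelled WT) against paralogue number in the Hoxa, Hoxb, Hoxc and Hoxd clusters; red circles are replicate 1, blue squares replicate 2, grey triangles replicate 3, and a cross marks a gene of the cluster not tested or without a probe; 29 of the 30 genes are drawn. On replicate 1 posterior genes lie above most others, without a steady climb within a cluster. Medians over all 30 genes were -1.74 for anterior, -1.07 for central and 1.01 for posterior genes. On replicate 2 all points lie within 1 of 0, and on replicate 3 all but Hoxa11 (-1.16) and Hoxc10 (1.08) do.

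The anterior genes are those of the hindbrain and the pharyngeal arches. Hoxa2, which sets the identity of the second pharyngeal arch, had normalized signals (in arbitrary units, an offset of 50 included) of 219, 206 and 206 in the samples labelled SA1-null of replicates 1 to 3, against 728, 152 and 166 in those labelled WT. The sample labelled WT of replicate 1 stood apart from the other 5. Hoxb2, which acts in the hindbrain, had 686, 3826 and 2836 in samples labelled SA1-null, against 3869, 3000 and 2704 in those labelled WT, so here the low sample was the one labelled SA1-null of replicate 1. Hoxb3, also of the hindbrain, had 276, 823 and 695 in samples labelled SA1-null, against 1545, 683 and 583 in those labelled WT. At this probe, the brighter of 2, both samples of replicate 1 lay outside the range of the others, on opposite sides. At the dimmer Hoxb3 probe both samples of replicate 1 were above all samples of replicates 2 and 3.

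Hoxa3, needed for thymus and parathyroid, had log2 ratios of -0.23, 0.08 and -0.04 at its brighter probe and of -0.81, 0.15 and 0.76 at its dimmer one, which also passed the filter. Its probes differed in sign on replicate 3.

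The lowest ratios on replicate 1 were those of the central genes Hoxd4 and Hoxb5. Hoxd4 had normalized signals of 471, 212 and 139 in samples labelled SA1-null, against 4966, 276 and 159 in those labelled WT. The sample labelled WT of replicate 1 was the high one, and it stood 10.5-fold above its partner on the array (log2 ratio -3.40), the gene's rank being 147 from the lowest of 18485. Uncorrected, the Hoxd4 spot had readings of 370, 97 and 88 in the samples labelled SA1-null (Cy3), against 13347, 253.5 and 128.5 in those labelled WT (Cy5). On replicates 2 and 3 its ratio was also below 0 (-0.38 and -0.20), which makes Hoxd4 and Hoxa6 (-0.07, -0.13 and -0.08) the 2 of 30 Hox genes below 0 on all 3 arrays, against 19.1% of all genes.

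Paralogue group 5 acts in the neck, shoulder and lung. Hoxb5 had normalized signals of 175, 562 and 512 in samples labelled SA1-null, against 1481, 408 and 413 in those labelled WT (log2 ratios -3.08, 0.46 and 0.31). Hoxa5 had 236, 706 and 816 in samples labelled SA1-null, against 992, 630 and 585 in those labelled WT (-2.07, 0.16 and 0.48), and Hoxc5 had log2 ratios of -1.64, 0.05 and 0.46. All 3 members of the group thus had the same sign pattern, below 0 on replicate 1 and above 0 on replicates 2 and 3, and in none of them were the groups of samples separated.

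Of paralogue group 4, genes of neck vertebra identity, Hoxa4 had log2 ratios of -1.99, 0.09 and 0.28, Hoxb4, also known from blood stem cells, -1.27, 0.03 and 0.32, and Hoxc4 -0.27, 0.06 and -0.03. Hoxb6, a trunk gene, followed with -1.35, 0.15 and 0.47. The ratios of the trunk genes of numbers 7 and 8 were smaller on replicate 1, with -0.60 for Hoxb7 and -0.88 for Hoxb8 against 0.90 for Hoxa7. Hoxa7 was the central gene with the highest ratio there, and it was 0.45 on replicate 2 and -0.48 on replicate 3. Hoxb7 and Hoxb8 were above 0 on replicates 2 and 3, at 0.63 and 0.03 for Hoxb7 and at 0.45 and 0.59 for Hoxb8.

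The Hoxb cluster differed in sign between slides. Its genes of numbers 2 to 8 were all below 0 on replicate 1, and Hoxb9 was above. On replicates 2 and 3, 8 of 8 Hoxb genes were above 0 on both arrays, against 23.2% of all genes, with cluster medians of 0.36 and 0.30. On the log2 scale those ratios were small, between 0.03 and 0.63.

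Posterior genes gave the highest ratios on replicate 1. Hoxa11, which patterns the forearm, the lower leg and the uterus, had normalized signals of 3208, 1046 and 577 in samples labelled SA1-null, against 532, 1250 and 1287 in those labelled WT. On replicate 1 the sample labelled SA1-null was 6.03-fold higher (log2 ratio 2.59, rank 78 from the highest), and lower there on replicates 2 (-0.26) and 3 (-1.16). Hoxa10, a gene of the lumbar region, the thigh and the uterus, had 1455, 573 and 575 in samples labelled SA1-null, against 303, 626 and 648 in those labelled WT (2.26, -0.13 and -0.17). In both genes the sample labelled SA1-null of replicate 1 was the highest of 6 and the one labelled WT of replicate 1 the lowest.

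Hoxc9 and Hoxc10 had ratios of the same size on replicate 1 with another arrangement of levels. Hoxc9, which shapes the lower ribs and the motor neurons of the trunk, had 1242, 4815 and 4112 in samples labelled SA1-null, against 238.5, 3779 and 4074 in those labelled WT (2.38, 0.35 and 0.01). Both samples of replicate 1 were low, and the one labelled WT was the lowest. Hoxc10 had 262, 235 and 387 in samples labelled SA1-null, against 51.5, 241 and 183 in those labelled WT (2.35, -0.03 and 1.08). The value of 51.5 is close to the offset of 50 that it includes. Before correction that spot read 97.5 in Cy5, with a local background of 64. The size of the ratio of 2.35 is therefore uncertain. The dimmer Hoxc10 probe gave 0.77 on replicate 1, where its channel labelled WT was not well above background.

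Hoxa13 and Hoxd13 stand at the end of their clusters and form the digits. Hoxd13 had normalized signals of 407, 146 and 207.5 in samples labelled SA1-null, against 203, 219 and 335 in those labelled WT (1.01, -0.58 and -0.69), and Hoxa13 had ratios of 1.26, -0.30 and -0.09. The limb genes Hoxd10 (0.46, -0.49 and -0.31) and Hoxd11 (0.49, -0.27 and 0.20) were above 0 on replicate 1 and below 0 on replicate 2. At the brighter probe, every tested gene of numbers 10 to 13, 7 in all, was above 0 on replicate 1 and below 0 on replicate 2. Hoxc10 was close to 0 on replicate 2 (-0.03), and its dimmer probe was above 0 there (0.03). The share of all genes with this pattern was not counted.

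**Figure D3:**
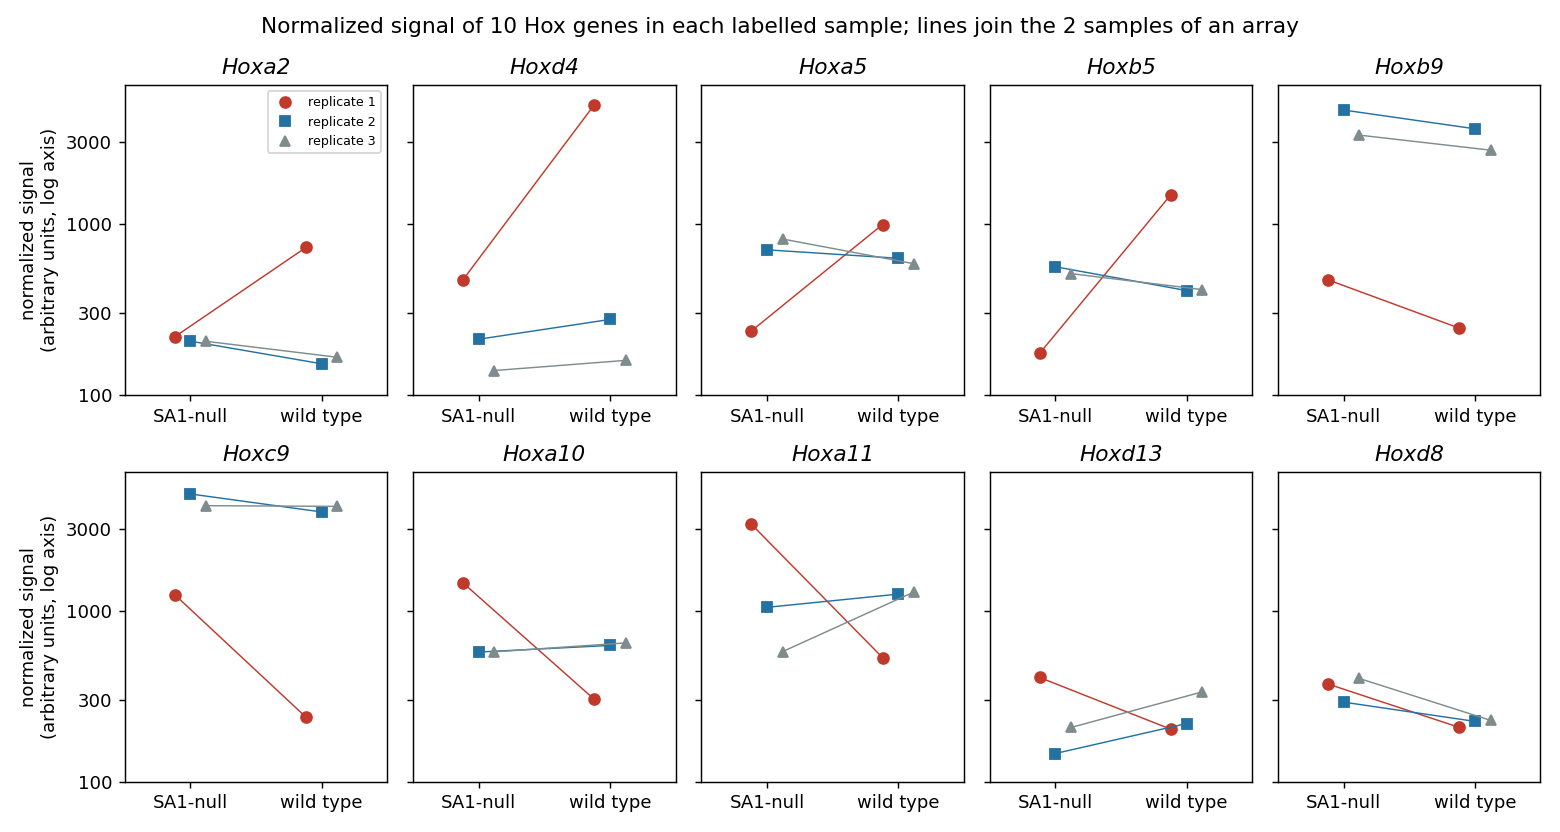
Normalized signal (arbitrary units, log axis) of 10 Hox genes in each sample labelled SA1-null (left) and labelled wild type (right); lines join both samples of an array, with circles for replicate 1, squares for replicate 2 and triangles for replicate 3. In Hoxd4 the circle on the right (4966) stands apart, in Hoxa11 the circle on the left (3208), and in Hoxd8 the 3 points on the left lie above the 3 on the right.

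Above 0 on all arrays were 5 of 30 Hox genes, a share near that of all genes (13.3%). Hoxd8, a gene of the trunk axis, had normalized signals of 373, 292 and 401 in samples labelled SA1-null, against 208, 225 and 228 in those labelled WT. All 3 samples labelled SA1-null were above all 3 labelled WT. Hoxd8 was the only Hox gene so separated in that direction (1 of 30), a share near the 2.89% of all genes. In the other direction 0 of 30 were separated, against 6.05% of all genes. Its log2 ratio was 0.84, 0.37 and 0.81 (0.68 ± 0.26, SD, n = 3), and it did not pass the test (limma adjusted p = 0.452).

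Hoxb9, which shapes the rib cage, had 471, 4636 and 3306 in samples labelled SA1-null, against 246, 3601 and 2700 in those labelled WT. The samples of replicate 1 were both far below the others, and the groups overlapped. The log2 ratio was 0.94, 0.36 and 0.29 (0.53 ± 0.35, adjusted p = 0.655 in limma). Hoxd9, known from the upper arm and the lumbar region, was at 0.75, 0.06 and 0.36, and Hoxc8, a gene of the thoracic region, at 0.32, 0.00 and 0.82. With Hoxc9, these made 5 of 30 Hox genes above 0 on all 3 arrays, against 13.3% of all genes. Of these, Hoxc8 and Hoxd9 were close to 0 on replicate 2 and Hoxc9 on replicate 3. Hoxa9, a gene of the trunk and of blood progenitors, missed by its ratio of -0.04 on replicate 2, with 0.56 on replicate 1 and 0.37 on replicate 3.

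Replicates 2 and 3 alone gave 0 of 30 Hox genes past the threshold in limma, against 1.54% of all genes, and 4 of 30 at an unadjusted p under 0.05, against 8.06%. With the slide as a fixed term, 10 of 30 Hox genes passed, against 9.58% of all genes. That fit takes its spread from the difference between replicates 2 and 3 alone, and the 10 calls are therefore given for completeness only.

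Levels within each channel were compared between replicate 1 and replicates 2 and 3. Replicate 1 was alone on its slide and read with another version of the extraction software. A shift in these levels therefore cannot be assigned to the sample rather than the slide. In the channel labelled SA1-null, the shift was the level on replicate 1 minus the mean of replicates 2 and 3. Its median was -1.20 log2 units for anterior, -0.86 for central and 0.68 for posterior genes, against -0.14 for all genes. In the channel labelled WT the medians ran the other way, 0.44, 0.19 and -0.42, against -0.07 for all genes. The shift thus ran with paralogue number in both channels, in opposite directions. Spearman rho was 0.49 in the channel labelled SA1-null and -0.49 in the channel labelled WT, over 30 genes that share arrays.

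Single genes differed in which channel had the larger shift. Hoxd4 was 1.46 above replicates 2 and 3 in the channel labelled SA1-null and 4.57 above in the channel labelled WT. Hoxb2 was at -2.26 in the channel labelled SA1-null and at 0.44 in the channel labelled WT. Hoxa11 was at 2.05 in the channel labelled SA1-null and at -1.25 in the channel labelled WT. Hoxb9 was at -3.05 in the channel labelled SA1-null and at -3.67 in the channel labelled WT, so that for Hoxb9 the level of replicate 1 was lower in both samples.

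**Figure D4:**
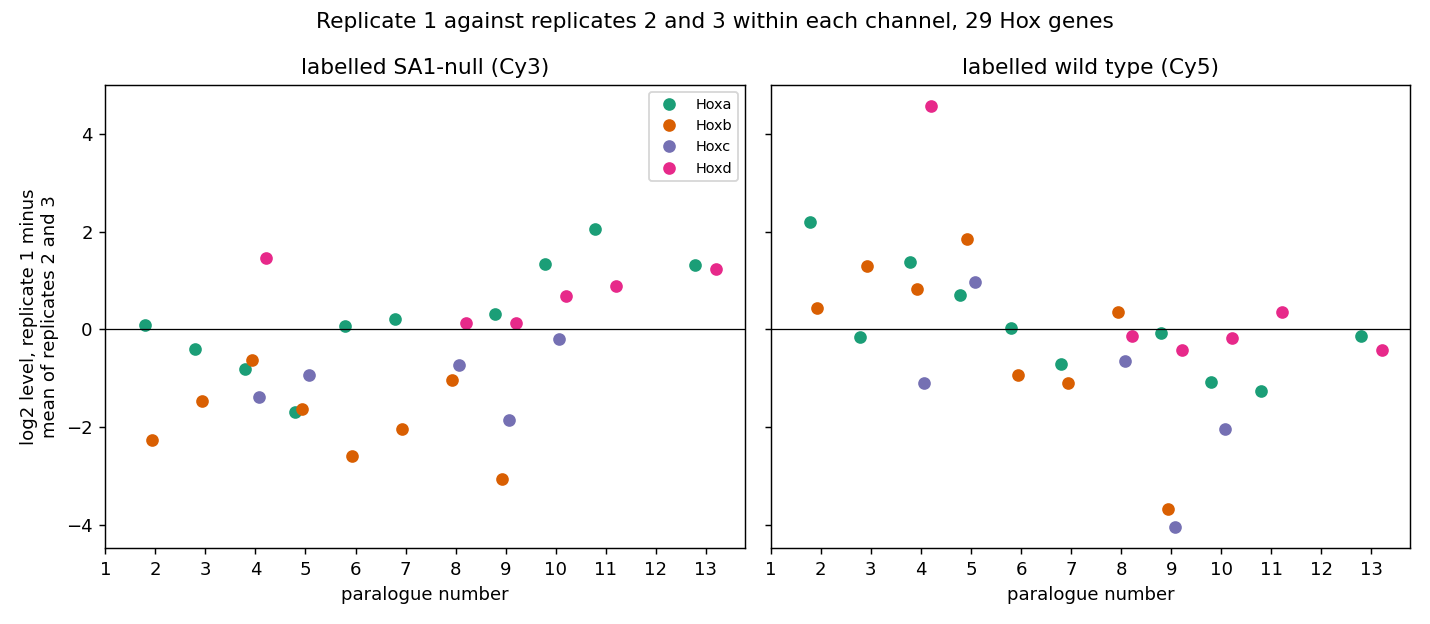
Log2 normalized level on replicate 1 minus the mean of replicates 2 and 3, against paralogue number, for 29 of the 30 Hox genes in the channel labelled SA1-null (left) and the channel labelled wild type (right), coloured by cluster. Points climb with the number on the left (rho 0.49 over all 30) and fall on the right (rho -0.49), and Hoxd4 on the right lies at 4.57.

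The brighter probe stood for each of the 9 Hox genes with 2 probes. Hoxd3 was not tested, and the dimmer Hoxb8 probe was not well above background on any array. In the other 7 genes both probes had the same sign on replicate 1. Sizes differed, and for Hoxb3 the dimmer probe read -0.69, 0.05 and 0.74, against -2.48, 0.27 and 0.25 for the brighter one, and for Hoxc10 it read 0.77, 0.03 and 0.41, against 2.35, -0.03 and 1.08. The dimmer Hoxa4 probe, which did not pass the filter, read -0.43 on replicate 1, against -1.99. For Hoxa13 (1.16 and 1.26) and Hoxd9 (0.84 and 0.75) both probes gave nearly the same ratio on replicate 1. The dimmer Hoxb9 probe was also above 0 on all arrays (0.27, 0.99 and 0.66).

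Among the genes not tested, Hoxd3, the neighbour of Hoxd4, resembled it on replicate 1. Before correction its brighter probe read 58, 34.5 and 37 in Cy3 of the samples labelled SA1-null, against 741, 57 and 63 in Cy5 of those labelled WT, and local background is part of these readings. In the channel labelled WT it was well above background on replicate 1 and not on the other arrays. The log2 ratio there was -1.69, and the dimmer Hoxd3 probe, not above background on any array, gave no usable ratio. Hoxd12 was well above background on 2 of 3 arrays in each channel, with log2 ratios of 0.13, 0.07 and 0.13.

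Hox proteins bind DNA with TALE cofactors, and Polycomb and trithorax complexes keep the clusters off or on. Of 9 TALE cofactor genes tested, 0 passed, and their median mean ratio was 0.01. On replicate 1, 2 of the 9 were below -1 (9.61% of all genes) and 0 above 1. Meis3, a Hox partner, had the smallest p of the list (0.45 ± 0.46, SD, n = 3). Of 30 Polycomb genes 0 passed, with a median of 0.00, and of 11 trithorax genes tested out of 14, 0 passed, with a median of 0.07. Cbx7, a subunit that reads the Polycomb mark, was at -1.92 on replicate 1 and at -0.10 and -0.16 on replicates 2 and 3, and Men1, a scaffold of trithorax complexes, averaged 0.38 ± 0.46. Over all 30 Polycomb genes, 1 was past 1 in either direction on replicate 1 (14.0% of all genes), where 16 of 30 Hox genes were.

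Retinoic acid is a signal known to switch on Hox genes of low number in the embryo. Its part in the Hox ratios was not tested. Of 16 pathway genes tested out of 18, 0 passed, and the median of their means was 0.06. On replicate 1, 6 of the 16 were below -1 (9.61% of all genes) and 1 was above 1 (4.43%), while 8 were above 0 (46.4%). On replicate 2 none was past 1 (0 of 16, against 1.97% of all genes). Aldh1a2, which makes retinoic acid in the embryo, had normalized signals of 468, 966 and 824 in samples labelled SA1-null, against 4643, 1295 and 1447 in those labelled WT (-3.31, -0.42 and -0.81). The groups did not overlap (6.05% of all genes were separated in this direction), and the gene did not pass (-1.52 ± 1.57, limma adjusted p = 0.671). Aldh1a1, another enzyme of this step, chosen after its values were seen, had 1309, 198 and 181 in samples labelled SA1-null, against 35300, 232 and 245 in those labelled WT, and Rarb, a receptor that retinoic acid itself induces, chosen likewise, had 204, 454 and 308 in samples labelled SA1-null, against 1375, 487 and 373 in those labelled WT. For all 3 genes the sample labelled WT of replicate 1 was the highest of 6. Aldh1a3, a further enzyme of this step, went the other way on replicate 1, with 453, 6831 and 4683 in samples labelled SA1-null, against 73.9, 7009 and 5838 in those labelled WT (log2 ratios 2.62, -0.04 and -0.32). Crabp1, a retinoic acid binding protein, was above 0 on all arrays (0.82, 0.54 and 1.36) and did not pass (0.91 ± 0.42, limma adjusted p = 0.394).

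Of the regulators Cdx1, Cdx2, Cdx4, Gdf11 and Gmnn, 2 were tested and 0 passed. Gmnn, which encodes geminin, a partner of Hox and Polycomb proteins, averaged -0.63 ± 0.57 (SD, n = 3).

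Limb and body position markers, transcription factors other than Hox genes that differ between body regions, were mostly above 0 on replicate 1. Of 14 tested out of 19, 0 passed, 12 were above 0 (46.4% of all genes) and 8 were above 1 (4.43%) on replicate 1, and their array medians were 1.08, -0.06 and -0.02. Shox2, which shapes the upper arm, averaged 0.50 ± 0.57, and Msx2, a factor of the limb tip and skull, -1.05 ± 1.02 (SD, n = 3). Pitx1, which marks the hindlimb, chosen after its values were seen, had normalized signals of 8891, 1466 and 867 in samples labelled SA1-null, against 989, 2344 and 2488 in those labelled WT. Tbx5, which marks the forelimb, chosen likewise, had log2 ratios of 1.73, -0.13 and 0.14. As in Hoxa11, the sample labelled SA1-null of replicate 1 was the highest of 6 for Pitx1, and its ratio was below 0 on replicates 2 and 3. Unlike in Hoxa11, its lowest sample was the one labelled SA1-null of replicate 3 (867), below the one labelled WT of replicate 1 (989).

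Some markers of other cell types differed between the channels, and their part in the Hox ratios was not tested. In bulk samples fewer cells of a type and less RNA per cell cannot be told apart. Of 10 neural markers 6 were tested. Their summed normalized signal was 2921, 12140 and 15010 in samples labelled SA1-null, against 28850, 11500 and 11930 in those labelled WT, so the 2 channels differed by most on replicate 1. Sox2, a factor of neural progenitors, had 80.2, 95.3 and 83.3 in samples labelled SA1-null, against 2056, 82.5 and 86.8 in those labelled WT, and Nes, their filament protein, 1007, 6437 and 8343 in samples labelled SA1-null, against 24800, 6844 and 7283 in those labelled WT. Nes made up most of the sum in the sample labelled WT of replicate 1. On that array 3 of the 6 markers were below -1 (9.61% of all genes) and the other 3 were above 0, namely Tubb3 (0.48), Elavl4 (0.47) and Map2 (0.16), genes of neurons. Elavl3, Dcx and Isl1 were among those that did not pass the filter. In the sample labelled WT of replicate 1, Sox2 and Nes were above the mean of replicates 2 and 3 in that channel. So were 12 of 30 Hox genes, against 8577 of all 18485 genes. Hoxa2, Hoxd4 and Hoxb5 were among them and Hoxb6 was not. A link between the neural markers and the Hox genes was not tested.

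Macrophage and blood cell markers were lower in the channel labelled SA1-null on all arrays. Of 20 tested out of 21, all were below 0 on every array (19.1% of all genes) and 10 passed (0.314%), with array medians of -3.23, -2.51 and -2.57. Their summed signal was 33630, 9220 and 7346 in samples labelled SA1-null, against 380200, 61970 and 57980 in those labelled WT. Fibroblast markers, 11 of 12 tested, had array medians of 1.35, 0.46 and 0.78, with 0 called and a summed signal of 903700, 369600 and 539200 in samples labelled SA1-null, against 356800, 317500 and 272400 in those labelled WT. Of 8 epithelial and endothelial markers 4 were tested and 0 passed, their summed signal being 517, 3193 and 2326 in samples labelled SA1-null, against 1147, 5436 and 5517 in those labelled WT, and Epcam, Pecam1, Cdh5 and Tek did not pass the filter. Fibroblast markers were thus present in both channels of every array, as the labels state.

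Genes beside the clusters were described in the same way. Of the 3 protein-coding genes on each side of each cluster in the RefSeq order, 24 in all, 20 were tested and 0 passed, with a median of 0.00. On replicate 1, 3 of the 20 were past 1 in either direction (14.0% of all genes), against 16 of 30 Hox genes. Skap2, an adaptor protein gene at the low-number end of the Hoxa cluster, had a mean of -0.92 ± 0.51 (SD, n = 3, limma adjusted p = 0.459), and Snx10, a sorting nexin gene next to it, -0.58 ± 0.31. The difference between the clusters and their neighbours was not tested.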

How the data were processed

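RNA of 3 samples labelled SA1-null (Cy3) and 3 labelled WT (Cy5) was measured on 3 arrays. Per the file headers, Agilent Feature Extraction 10.1.1.1 (replicate 1) and 10.7.3.1 (replicates 2 and 3) gave the deposited intensity values of each spot and its local background, and a log10 ratio of Cy5 over Cy3. The deposited log2 table of the authors was made with limma, per the submitters' processing notes; how it was centred is unknown. It ran as Cy5 over Cy3 (correlations with log2 Cy5 over Cy3 computed here 0.985, 0.982 and 0.997; column medians -0.02, -0.02 and -0.01).

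Median spot intensity was corrected by normexp (offset 50, which pulls ratios of dim probes towards 0) and loess in limma 3.58.1 (R 4.3.3). Control spots and 116, 125 and 207 outlier-flagged spots had weight 0 and were left out. No spot was saturated (0 on each array). Ratios were turned to Cy3 over Cy5. Of 41174 probes, 24015 were well above background in at least 1 channel on all 3 arrays, and the brightest stood for each of 18485 genes or transcripts. RefSeq names (GRCm38.p6) matched 23374 probes. The mean ratio was tested against 0 with lmFit and eBayes, adjusted by Benjamini-Hochberg over all genes. Normalized signals per sample came from Aquantile normalization. The test was checked on simulated data. The 39 Hox genes and the 10 gene lists were chosen with earlier results of these data known. All Hox genes may be named, and from each list up to 4 members with the smallest p. Further list members were named after their values were seen. Values of 1 Hox gene and of a few list members are not reported here; they stay in the counts.

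The alternatives were other background corrections, normalizations, filters, probe rules, variance models, separate channels, slide terms, left-out replicates and, chosen after seeing the data, array weights and the recomputed order by paralogue number. The 3 arrays limit the precision.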

Additional observations from a re-analysis of the deposited data

How the results depend on the processing

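Of all 18485 genes, 58 passed. The count was 118 without background subtraction, 265 with an offset of 0, 282 from processed signals, 34 with median centring, 160 with scale normalization, 92 when both channels had to be above background, 0 without the filter on dim probes (1990 at an unadjusted p under 0.05 in limma), 142 with trend and robust eBayes, 132 at a threshold of 0.1 and 185 with array weights. Each array pairs 1 sample of each label: with the channels as separate samples, 0 genes passed without a replicate block (633 at an unadjusted p under 0.05 in limma) and 102 with the array as replicate block. With the slide as a fixed term 1770 passed, and leaving out 1 replicate gave between 0 and 284. Of the Hox genes (28 with both channels above background, 37 without the filter, otherwise 30) 0 passed in each of these fits except the one with the slide, where 10 did.

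The median log2 ratio of all Hox genes, -0.07, ran from -0.10 to 0.18 when 1 replicate was left out, 0.18 being without replicate 1. For Hoxa it was -0.01 without background subtraction, 0.03 from processed signals, -0.09 with median centring, -0.04 with scale normalization, 0.05 from deposited values, -0.01 over the mean of probes, 0.03 with every probe, -0.09 with the slide, -0.04 with array weights and -0.08 to -0.01 leaving out a replicate. For Hoxc it was 0.68 with an offset of 0, 0.95 from processed signals, 0.15 without the filter, 0.17 with array weights and 0.16 to 0.57 leaving out a replicate. Leaving out a replicate gave -0.61 to 0.32 for Hoxb, above 0 without replicate 1, and -0.16 to 0.25 for Hoxd. Median centring moved the median of all genes to -0.30, and the Hox median was then 0.05 above it. The cause of these shifts was not tested.

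Of 538 recomputed Hox gene values, 41 in 20 genes changed sign. These were Hoxa3 (0.03) and Hoxb7 (-0.05) from processed signals, Hoxa7 (-0.09), Hoxb7 (-0.37) and Hoxb8 (-0.06) with median centring, Hoxa3 (0.05) and Hoxc4 (0.04) from deposited values, and Hoxb7 (-0.14), Hoxb8 (-0.18), Hoxd10 (0.03) and Hoxd13 (0.18) with the slide. With array weights they were Hoxa11 (-0.07), Hoxa13 (-0.09), Hoxa2 (0.17), Hoxa3 (0.02), Hoxb5 (0.03), Hoxb6 (0.03), Hoxc4 (0.01) and Hoxd11 (-0.11). Leaving out a replicate changed 22 signs, 16 of them without replicate 1. The ranges were -0.15 to 1.07 for Hoxa10, -0.71 to 1.17 for Hoxa11, -0.20 to 0.58 for Hoxa13, -0.71 to 0.37 for Hoxa2, -0.13 to 0.02 for Hoxa3, -0.95 to 0.18 for Hoxa4, -0.95 to 0.32 for Hoxa5, -0.01 to 0.68 for Hoxa7, -1.21 to 0.21 for Hoxb2 and -1.12 to 0.26 for Hoxb3. They were -0.62 to 0.17 for Hoxb4, -1.39 to 0.39 for Hoxb5, -0.60 to 0.31 for Hoxb6, -0.29 to 0.33 for Hoxb7, -0.21 to 0.52 for Hoxb8, -0.15 to 0.02 for Hoxc4, -0.79 to 0.26 for Hoxc5, -0.40 to 0.07 for Hoxd10, -0.03 to 0.35 for Hoxd11 and -0.64 to 0.21 for Hoxd13.

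The order by paralogue number on replicate 1 kept its direction under the 12 settings computed (rho 0.70 to 0.80), while rho lay between -0.43 and -0.23 on replicate 2 and between -0.22 and -0.08 on replicate 3. With 3 arrays of which 1 stands alone on its slide, the array, the slide and the samples on it cannot be told apart, and dim Hox probes have ratios pulled towards 0. A random effect of the slide was not fitted, since 3 arrays do not estimate it.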
